A study of Homo sapiens with 4 samples.

Results

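The transcripts of 38 centromere and kinetochore proteins were followed in 2 colon cancer cell lines, HCT116 and LOVO, each sequenced once as adherent cells and once as spheroids. The 38 genes were picked by name, as protein subunits of these structures, from 58735 genes in the table. All 38 are protein-coding genes, and they lie on 19 chromosomes. One of them, CENPP, had a mean level under 1 FPKM (fragments per kilobase of gene length per 1000000 reads) and was not compared, which left 37 among 14429 genes compared. Adherent cells of both lines, labelled wild type, grew in RPMI-1640 with serum and without drug. Spheroids grew from the same lines on low-attachment plates in serum-free medium with B27, N2, basic fibroblast growth factor and epidermal growth factor, and in the presence of oxaliplatin, a platinum drug that crosslinks DNA. The labels do not name the drug, and the labels and the study's methods differ in the unit of its dose. Growth form, medium and drug changed together, so their parts in any difference cannot be told apart.

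The centromere is the chromosomal site, marked by nucleosomes that hold the histone H3 variant CENP-A, on which the kinetochore is built. An inner layer, the constitutive centromere-associated network, binds these nucleosomes throughout the cell cycle, and an outer layer assembles on it for mitosis and captures spindle microtubules. Many of the genes are transcribed in a cell cycle-dependent manner, with the highest transcript levels around G2 and mitosis, so in cultured cancer cells their transcripts are often read together with those of proliferation genes. In a bulk library, fewer cells in mitosis and fewer transcripts per cell cannot be told apart.

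The 4 libraries held 15483569 to 20429147 reads on genes, and mitochondrially encoded genes took 11.1% of them in HCT116 spheroids against 3.65% to 6.77% in the others. The keratins KRT8, KRT18 and KRT19 were present in all 4 libraries. KRT19 was at 14.9 FPKM in adherent LOVO and 4.85 in LOVO spheroids, and at 808.1 and 543.1 in HCT116. The 2 libraries labelled LOVO went against a colon epithelial identity in other markers: CDX2 was at 0, CDH1 was at 0.117 FPKM in adherent cells and 0.00805 in spheroids, and EPCAM was at 0.930 and 1.499. In HCT116, EPCAM was at 85.6 FPKM in adherent cells and 79.3 in spheroids, CDH1 was at 31.1 in both libraries, and CDX2 was at 3.84 and 3.12. VIL1 was at 0 in both LOVO libraries and at 0.0425 and 0.0946 FPKM in HCT116, so it did not separate the lines. KRT20 was at 0.0302 FPKM in adherent LOVO and 0.0539 in LOVO spheroids, and at 0.930 and 7.45 in HCT116. For 8 markers of blood, endothelial and stromal cells, the summed level ran from 6.76 FPKM in adherent HCT116 to 17.6 in HCT116 spheroids, and from 11.9 in adherent LOVO to 19.0 in LOVO spheroids. COL1A1 was at 5.51 FPKM in adherent HCT116 and 15.5 in HCT116 spheroids, but at 9.89 in adherent LOVO and 6.10 in LOVO spheroids, where PECAM1 was at 6.35 and COL3A1 at 5.13, while the leukocyte gene PTPRC was at most at 0.0107 FPKM in any library. The part of these markers in the results was not tested. Each line's values are given on their own beside those that join or compare the lines.

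Centromere and kinetochore transcripts were lower in spheroids than in adherent cells in both lines, and the difference was larger in HCT116. Summed over the 38 genes, the level went from 399.6 FPKM in adherent HCT116 to 192.4 in HCT116 spheroids, and from 651.6 in adherent LOVO to 431.8 in LOVO spheroids. The median gene stood at 35.0% of its adherent level in HCT116 spheroids and at 71.7% in LOVO spheroids. These sums and percents rest on the library sizes behind the FPKM. Per 1000000 reads on genes, the 38 genes held 2086 reads in adherent LOVO and 1653 in LOVO spheroids, a smaller fall than in FPKM. In HCT116 they held 1333 and 690.2. The FPKM sum over all genes compared also fell, from 300400 to 258700 in LOVO and from 309100 to 304200 in HCT116. Changes between conditions were computed as log2(FPKM + 1) in spheroids minus adherent cells, and a change past 1 in either direction was taken as called. In HCT116, 24 of 37 genes were lower past -1, against a background of 3.33% of all genes compared, and 0 were higher past 1, against 2.19%. In LOVO, 7 of 37 were lower, against a background of 7.85%, and 0 were higher, against 8.57%. Over the 37 genes the median was -1.18 in HCT116, against -0.49 in LOVO, beside -0.03 and -0.06 over all genes compared. The LOVO median was -0.31 under TPM and -0.28 without mitochondrially encoded genes in the scaling.

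**Figure D1:**
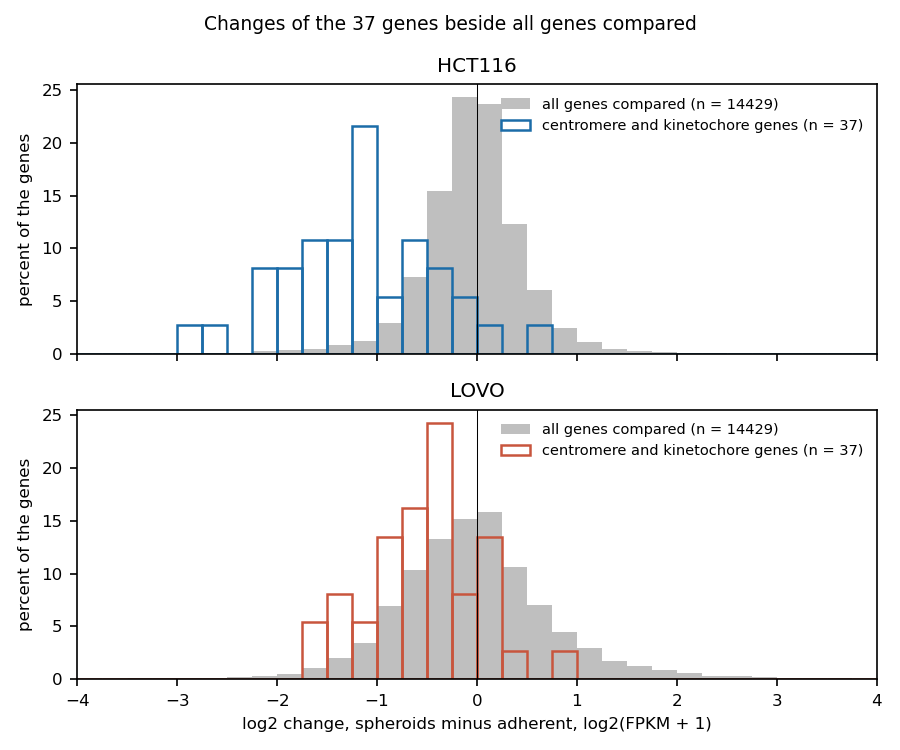
Distribution of the log2 change, spheroids minus adherent, in bins of 0.25 (x axis) as the percent of genes (y axis), for all 14429 genes compared (grey) and the 37 centromere and kinetochore genes (outlines), with HCT116 above and LOVO below. In HCT116 the outlines lie mostly left of the grey peak, with a median of -1.18, and in LOVO they overlap it more, with a median of -0.49.

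With 1 library in each condition there was no test within a line. The reads behind each value were recovered from the FPKM and gene length, and each ratio of spheroids to adherent cells was given an exact 95% interval (Clopper-Pearson) that covers counting error only, not the spread between cultures. By these intervals, 34 of 37 genes were below the adherent level in HCT116, 1 was above it and 2 intervals held 0 on the log2 scale. In LOVO, 30 were below, 3 were above and 4 intervals held 0. These intervals rest on the library sizes behind the FPKM and were not recomputed under other scalings. In LOVO, the interval of KNTC1 lay below 0 (-0.20 to -0.05), yet its change was 0.08 under TPM. Intervals were not counted over all genes compared, so the counts by interval have no background. By sign alone, 35 (HCT116) and 30 (LOVO) of the 37 genes had a change below 0, beside 7699 and 7716 of all 14429. A fit with limma across both lines, with the line as a covariate, called 0 of 14429 genes at an adjusted p under 0.05 (0%), and the smallest adjusted p among the 37 genes was 0.462. At an unadjusted p under 0.05 the limma fit held 20 of the 37 genes, against a background of 10.7%. Without the covariate it held 4 of the 37, beside 163 of all 14429 genes.

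In 29 of 37 genes the change was below 0 in both lines, which 35.1% of all genes compared shared. CENPB, 1 of the 29, was above 0 in HCT116 (0.09) without mitochondrially encoded genes in the scaling, and CENPO and KNTC1 were above 0 in LOVO (0.0024 and 0.09). Changes past -1 in both lines were found for 7 genes, CENPA, OIP5, CENPN, NDC80, SPC25, ZWINT and SKA1, against a background of 0.880%. The call of OIP5 in LOVO was lost under TPM (-0.98) and without mitochondrially encoded genes (-0.92), and that of SKA1 in LOVO without mitochondrially encoded genes (-0.98). These 7 come from different layers: CENPA and OIP5 from the CENP-A nucleosome and its loading, CENPN from the inner layer, and the other four from outer complexes.

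**Figure D2:**
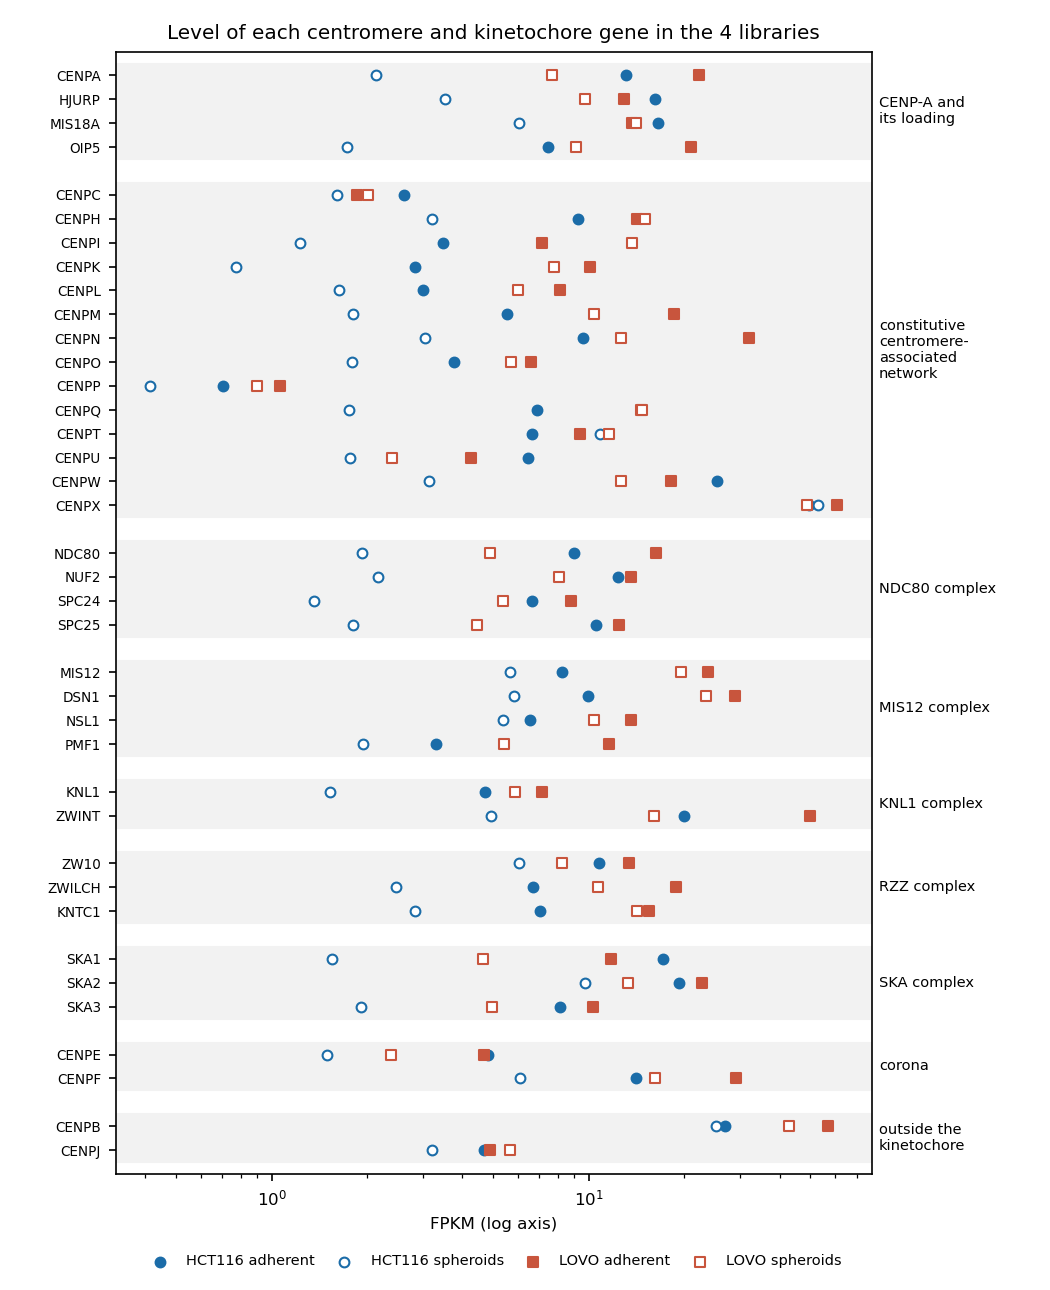
Level of each of the 38 genes in FPKM (x axis, log scale), by role (y axis), in adherent cells (filled) and spheroids (open) of HCT116 (circles) and LOVO (squares). Open circles lie left of filled circles for 36 of 38 genes, and open squares lie left of filled squares for 31 of 38.

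Sequence around the transcription start was looked at for the 7 genes that were lower past -1 in both lines, because late cell cycle genes are known to carry a cell cycle genes homology region (CHR) near the start, and CCAAT boxes before it. RefSeq promoters (GRCh38.p14, 250 bases before to 50 after the start) were matched for 31 of the 38 genes, all but MIS18A, CENPH, CENPL, CENPM, KNL1, KNTC1 and CENPJ. The CHR was searched as TTTGAA or TTCGAA on both strands. The 60 bases before and 50 after the start are shown for the 7 genes, with each CHR match in capitals (TTCAAA is TTTGAA read on the other strand).
CENPA: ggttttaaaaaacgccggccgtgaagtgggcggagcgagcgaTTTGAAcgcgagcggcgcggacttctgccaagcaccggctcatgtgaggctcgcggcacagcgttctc
OIP5: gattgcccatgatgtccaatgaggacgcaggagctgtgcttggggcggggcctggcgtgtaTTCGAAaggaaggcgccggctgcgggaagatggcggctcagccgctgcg
CENPN: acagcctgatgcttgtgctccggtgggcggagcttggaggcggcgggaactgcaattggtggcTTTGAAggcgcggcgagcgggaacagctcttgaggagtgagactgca
NDC80: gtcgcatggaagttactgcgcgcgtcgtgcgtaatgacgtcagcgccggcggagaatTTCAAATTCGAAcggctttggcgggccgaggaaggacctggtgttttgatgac
SPC25: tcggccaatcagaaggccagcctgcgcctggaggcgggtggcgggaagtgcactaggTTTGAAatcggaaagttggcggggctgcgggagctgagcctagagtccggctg
ZWINT: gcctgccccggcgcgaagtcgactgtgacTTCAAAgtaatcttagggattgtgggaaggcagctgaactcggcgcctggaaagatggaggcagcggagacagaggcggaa
SKA1: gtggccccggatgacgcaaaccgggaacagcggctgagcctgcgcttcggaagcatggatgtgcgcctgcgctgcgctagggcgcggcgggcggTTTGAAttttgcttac
These stretches are, in GRCh38.p14, CENPA at chr2:26785996-26786105 (plus strand), OIP5 at chr15:41332542-41332651 (minus strand), CENPN at chr16:81007154-81007263 (plus strand), NDC80 at chr18:2571497-2571606 (plus strand), SPC25 at chr2:168890381-168890490 (minus strand), ZWINT at chr10:56361210-56361319 (minus strand) and SKA1 at chr18:50374986-50375095 (plus strand).

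All 7 of these stretches, those of OIP5 and SKA1 included, hold a CHR match, and in NDC80 there are 2, next to each other across the start. A CHR match anywhere in the 300 bases was found in 15 of 31 promoters of the set (48.4%), beside 16.6% of all 27305 promoters in the table and 10.6% of the 9601 that belong to genes compared. Among members lower past -1 in HCT116, 12 of 19 promoters held one (63.2%), and among the other members 3 of 12 did (25.0%). Lower past -1 there without a match were CENPI, CENPK, CENPQ, CENPU, SPC24, ZWILCH and CENPE. With a match but not past -1 there were CENPC, CENPO and ZW10. Whether the motif bears on the changes was not tested. Within the printed stretch alone, which was chosen after the positions were seen, 12 of 31 members held a match (38.7%), beside 5.46% of all promoters. CENPI had the highest change of the 37 genes in LOVO (0.85) and CENPT the highest in HCT116 (0.63), and both hold none in the 300 bases searched. CENPW, with the lowest change of the inner layer in HCT116 (-2.67), holds 1. CENPI was itself lower past -1 in HCT116, only just (-1.01). CENPI and CENPT are shown over the same stretch (chosen after their values were seen).
CENPI: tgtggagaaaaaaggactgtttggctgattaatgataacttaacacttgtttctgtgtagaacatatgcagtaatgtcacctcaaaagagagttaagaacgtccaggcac
CENPT: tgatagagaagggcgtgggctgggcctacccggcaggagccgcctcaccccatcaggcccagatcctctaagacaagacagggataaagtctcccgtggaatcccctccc
They lie at chrX:101100998-101101107 (plus strand) for CENPI and chr16:67847644-67847753 (minus strand) for CENPT. The CENPI stretch is not at the outermost start of the gene, which begins at 101098218. Outermost starts also lie outside the stretches of CENPA (26764289), CENPN (81006498), SPC25 (168913371) and CENPT (67847811). Other starts of these genes were not searched, so a lack of matches holds only for the bases searched. A CCAAT box (CCAAT on either strand) was found in 19 of 31 promoters of the set (61.3%), beside 35.7% of all promoters and 36.6% of those of genes compared, and both motifs in 10 (32.3%), beside 6.58% and 4.59%. For E2F sites (TTTCCCGC, TTTCGCGC, TTTGCCGC or TTTGGCGC, both strands) the count was 4 of 31 (12.9%), beside 3.33% of all promoters and 5.49% of those of genes compared. A match to these letters is a description of the sequence and was not tested as a site of binding.

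CENP-A and its loading. CENPA encodes the centromeric histone, HJURP the chaperone that carries it, and MIS18A and OIP5 are subunits of the Mis18 complex that licenses the centromere for new CENP-A. All 4 were lower past -1 in HCT116, with a median change of -1.77, and 2 of them, CENPA and OIP5, in LOVO, with a median of -0.75. CENPA was at 13.2 FPKM in adherent HCT116 and 2.13 in HCT116 spheroids, and at 22.3 in adherent LOVO and 7.64 in LOVO spheroids. Its log2 ratio was -2.63 (95% counting interval -3.01 to -2.27) in HCT116 and -1.55 (-1.74 to -1.35) in LOVO, so both spheroid libraries were well under both adherent ones. HJURP was at 16.1 and 3.54 FPKM in HCT116, and at 12.9 and 9.76 in LOVO. This chaperone transcript thus stood at 21.9% of its adherent level in HCT116 and at 75.4% in LOVO. OIP5 was at 7.42 and 1.73 FPKM in HCT116 and at 21.1 and 9.13 in LOVO, and 38.0% of its exonic bases overlap a gene on the other strand, whose reads cannot be told apart here because the counting is not stated to use strand. MIS18A was at 16.5 and 6.05 FPKM in HCT116 but at 13.7 and 14.1 in LOVO, where its interval held 0 (-0.15 to 0.23).

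The constitutive centromere-associated network. Of 13 subunits compared, 8 were lower past -1 in HCT116 and 1, CENPN, in LOVO, with medians of -1.11 and -0.31. The LOVO count is no more than the background of 7.85% gives. In HCT116 11 of the 13 were below 0, and in LOVO 8 of 13, of which CENPO moved above 0 when mitochondrially encoded genes were left out of the scaling. The subunits are taken here by the subcomplexes they form.

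CENP-C, which links CENP-A nucleosomes to the MIS12 complex, had low levels throughout: CENPC was at 2.62 and 1.60 FPKM in HCT116 and at 1.87 and 2.01 in LOVO. The CENP-L and CENP-N pair reads the CENP-A nucleosome. CENPN was at 9.61 and 3.05 FPKM in HCT116 and at 32.0 and 12.7 in LOVO, that is 31.8% and 39.6% of the adherent level, and 22.8% of its exonic bases overlap genes on the other strand. Its partner CENPL was at 3.01 and 1.64 FPKM in HCT116 and at 8.15 and 5.987 in LOVO, with changes of -0.60 and -0.39. The pair thus differed in LOVO, where CENPN was lower past -1 and CENPL was not.

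CENP-H, CENP-I, CENP-K and CENP-M form the second subcomplex, and all 4 were lower past -1 in HCT116, CENPI only just (-1.01), and not when centred on the median of all genes (-0.97) or without mitochondrially encoded genes (-0.92). CENPH was at 9.25 and 3.21 FPKM there, CENPK at 2.83 and 0.773, and CENPM at 5.55 and 1.81. In LOVO they went different ways. CENPI was at 3.47 and 1.23 FPKM in HCT116 but at 7.15 and 13.7 in LOVO, a log2 ratio of -1.50 (-1.86 to -1.16) and 0.94 (0.79 to 1.08), so its level in LOVO spheroids was 191.3% of that in adherent cells. CENPH was at 14.2 and 15.02 FPKM in LOVO with an interval that held 0, CENPK at 10.1 and 7.77, and CENPM at 18.5 and 10.4. Besides CENPI, no gene of the 37 had a LOVO change above 0.5.

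CENP-O, CENP-P, CENP-Q and CENP-U form the third subcomplex, a docking site for Polo-like kinase 1. CENPQ was at 6.88 and 1.75 FPKM in HCT116 and at 14.6 and 14.8 in LOVO, where the interval of its ratio held 0 (-0.17 to 0.20). CENPU was at 6.45 and 1.77 FPKM in HCT116 and at 4.27 and 2.39 in LOVO, below the adherent level in both. CENPO, at 3.77 and 1.79 FPKM in HCT116 and 6.599 and 5.67 in LOVO, changed by -0.77 and -0.19, and CENPP, the gene not compared, held 0.701 and 0.413 FPKM in HCT116 and 1.07 and 0.898 in LOVO. Exons of both overlap genes on the other strand, over 31.4% of CENPO and 42.7% of CENPP.

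CENP-T and CENP-W carry histone folds and pair with CENP-S and CENP-X, and CENP-T binds the NDC80 complex. CENPW had the second-lowest change of the set in HCT116: it was at 25.4 FPKM in adherent cells and 3.14 in spheroids, 12.4% of the adherent level, with a log2 ratio of -3.02 (-3.51 to -2.56). In LOVO it was at 18.2 and 12.7 FPKM, a log2 ratio of -0.52 (-0.79 to -0.25). CENPT, its histone-fold partner, was the 1 gene above the adherent level by counting intervals in both lines, at 6.63 and 10.9 FPKM in HCT116 and 9.42 and 11.6 in LOVO, with changes of 0.63 and 0.27 that did not pass 1. Of the exonic bases of CENPT, 19.6% overlap genes on the other strand, whose reads cannot be told apart here. CENPX, the gene with the highest mean level of the set, differed little between conditions, at 49.5 and 52.9 FPKM in HCT116 and 60.8 and 48.9 in LOVO.

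**Figure D3:**
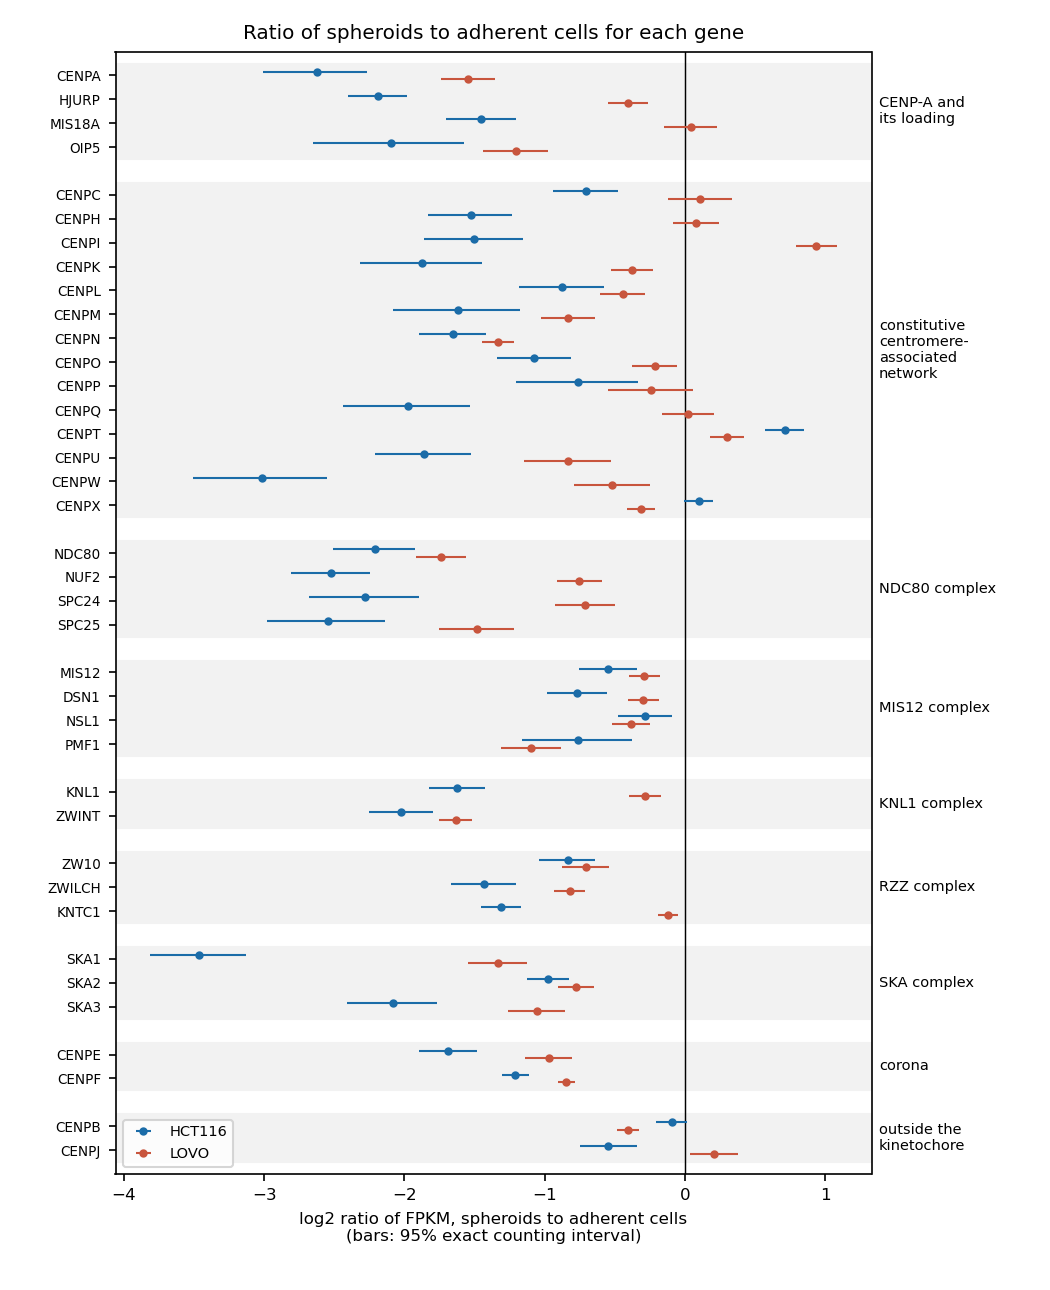
Log2 ratio of the FPKM in spheroids to that in adherent cells (x axis) for each of the 38 genes (y axis, by role), HCT116 in blue and LOVO in red, with bars for the exact 95% counting interval of 1 library against 1. HCT116 points reach -3.46 at SKA1, the MIS12 complex lies between -1.10 and -0.28 over both lines, and CENPI is at -1.50 in HCT116 and 0.94 in LOVO.

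The outer layer. Together, 18 genes of the NDC80, MIS12, KNL1, RZZ and SKA complexes and the corona had medians of -1.16 (HCT116) and -0.74 (LOVO). Of them, 12 and 4 were lower past -1, against backgrounds of 3.33% and 7.85%. All 18 were below 0 in both lines, as were 35.1% of all genes compared. KNTC1 in LOVO was above 0 under TPM (0.08) and without mitochondrially encoded genes (0.09). The difference in count between the inner and outer layers was not tested.

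The NDC80 complex is the main microtubule receptor of the kinetochore, a rod of 4 subunits. It had the lowest median of the groups in both lines, -1.90 in HCT116 and -0.99 in LOVO, and each subunit was lower past -1 in HCT116. NDC80 was at 8.97 and 1.93 FPKM in HCT116 and at 16.3 and 4.89 in LOVO, with log2 ratios of -2.21 (-2.51 to -1.93) and -1.74 (-1.92 to -1.57). Its coiled-coil partner NUF2 was at 12.4 and 2.16 FPKM in HCT116 and 13.6 and 8.07 in LOVO, so that 17.4% and 59.4% of the adherent level was left. At the centromeric end of the rod, SPC25 was at 10.6 and 1.81 FPKM in HCT116 and at 12.5 and 4.45 in LOVO, and SPC24 was at 6.62 and 1.36 in HCT116 and at 8.80 and 5.37 in LOVO. NDC80 and SPC25 were lower past -1 in LOVO as well, NUF2 and SPC24 were not (-0.69 and -0.62).

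The MIS12 complex joins the inner layer to NDC80 and KNL1, and 0 of its 4 subunits were past -1 in either line. Medians were -0.51 in HCT116 and -0.32 in LOVO. DSN1 was at 9.94 and 5.82 FPKM in HCT116 and at 28.9 and 23.5 in LOVO. The range over DSN1, MIS12, NSL1 and PMF1 was -0.68 to -0.24 in HCT116 and -0.97 to -0.28 in LOVO, the lowest in LOVO being PMF1. It stood at 46.7% of its adherent level there and passed -1 with pseudocounts of 0.1 (-1.08) and 0.01 (-1.10). Of its exonic bases, 23.3% are shared with the read-through gene PMF1-BGLAP on the same strand.

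KNL1 is the scaffold to which checkpoint proteins bind, and ZWINT is its partner. ZWINT was at 19.9 and 4.91 FPKM in HCT116 and at 50.02 and 16.1 in LOVO, with log2 ratios of -2.02 (-2.25 to -1.80) and -1.64 (-1.76 to -1.52). ZWINT and NDC80 had the lowest changes of the 37 genes in LOVO (-1.58 and -1.56), and which of them was lower depended on the pseudocount and scaling. KNL1 was at 4.71 and 1.53 FPKM in HCT116 and at 7.15 and 5.86 in LOVO, lower past -1 in HCT116 and not in LOVO (-0.25).

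The RZZ complex (KNTC1, the human Rod protein, with ZW10 and ZWILCH) recruits dynein and the checkpoint protein Mad1. ZWILCH was at 6.66 and 2.47 FPKM in HCT116 and at 18.9 and 10.7 in LOVO, and KNTC1 at 7.04 and 2.84 in HCT116 and at 15.5 and 14.3 in LOVO. Both were lower past -1 in HCT116 (KNTC1 not without mitochondrially encoded genes, -0.93), and ZW10, with changes of -0.74 and -0.65, was not. In LOVO 0 of the 3 passed -1.

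The SKA complex couples kinetochores to shortening microtubules. SKA1 had the lowest change of the set in HCT116: it was at 17.1 FPKM in adherent cells and 1.55 in spheroids, 9.08% of the adherent level, from 1029 and 77 reads. Its log2 ratio was -3.46 (-3.81 to -3.13) in HCT116. In LOVO SKA1 was at 11.7 and 4.65 FPKM, 39.6% of the adherent level. SKA3 was at 8.11 and 1.91 FPKM in HCT116 and at 10.3 and 4.96 in LOVO. SKA2, the smallest subunit, was at 50.9% and 58.4% of its adherent level, so the members of 1 complex ranged in HCT116 from -2.83 to -0.91.

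CENPE, the kinesin that moves chromosomes to the metaphase plate, and CENPF, a large coiled-coil protein, lie in the fibrous corona. CENPE was at 4.81 and 1.49 FPKM in HCT116 and at 4.67 and 2.38 in LOVO. CENPF was at 14.1 and 6.10 FPKM in HCT116 and at 29.1 and 16.2 in LOVO, from 1197 to 6094 reads in a library. Both were lower past -1 in HCT116, CENPF not without mitochondrially encoded genes (-0.93), and neither in LOVO (-0.75 and -0.81).

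CENPB and CENPJ bear the name but lie outside these layers: CENP-B binds the CENP-B box of alpha satellite DNA, and CENP-J is a centriole assembly factor. CENPB was at 26.9 and 25.2 FPKM in HCT116 and at 57.1 and 43.0 in LOVO, with an interval that held 0 in HCT116, where its change turned from -0.09 to 0.09 without mitochondrially encoded genes. CENPJ was at 4.69 and 3.21 FPKM in HCT116 and at 4.89 and 5.64 in LOVO. Neither passed 1 in either direction in either line.

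Levels also differed between the lines. In adherent cells 31 of 38 genes were higher in LOVO, beside 7641 of 14429 genes compared. Past a log2 difference of 1 were 12 of 37, against a background of 17.4%, with 0 lower past -1, against 16.4%. In spheroids 37 of 38 were higher in LOVO, all but CENPX, beside 7447 of 14429 genes compared. Past 1 were 26 of 37, against 17.7%, with 0 lower, against 15.0%. The median log2 difference, LOVO minus HCT116, was 0.67 in adherent cells and 1.28 in spheroids, beside 0.07 and 0.04 over all genes compared. CENPI had the widest difference in spheroids (2.72), and CENPN in adherent cells (1.64). The change was lower in HCT116 than in LOVO for 32 of the 37 genes, beside 6899 of 14429 genes compared. The difference between the lines was not tested. Signs were opposite, below 0 in HCT116 and above 0 in LOVO, for 6 of 37 genes (MIS18A, CENPC, CENPH, CENPI, CENPQ and CENPJ), against a background of 17.9%. With CENPX, which went the other way, 7 of 37 had opposite signs, beside 35.8% of all genes compared.

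Genes of neighbouring pathways, listed with earlier results of these data known, were counted the same way. The background lower past -1 was 3.33% of all genes compared in HCT116 and 7.85% in LOVO. In lists this short, LOVO counts of 0 or 1 are about what that background gives. The chromosomal passenger complex with its shugoshins, which corrects kinetochore attachments, had 6 of 7 genes lower past -1 in HCT116 and 1 of 7, BIRC5, in LOVO, with medians of -1.57 and -0.30. AURKB, its kinase, was at 26.5 and 3.27 FPKM in HCT116 and at 26.4 and 21.6 in LOVO. For the spindle checkpoint, which holds anaphase until every kinetochore is attached, the counts were 5 of 8 and 0 of 8, with medians of -1.53 and -0.40. MAD2L1 was at 15.8 and 2.97 FPKM in HCT116 and at 9.81 and 9.25 in LOVO. In HCT116 both medians were below that of the members together, and in LOVO both were above it, a difference that was not tested.

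G2/M genes such as PLK1 and CCNB1 were lower past -1 in 10 of 10 cases in HCT116 and in 5 of 10 in LOVO, with medians of -2.02 and -1.0. The 14 G1/S and replication genes gave 9 and 1, with medians of -1.36 and -0.73, and cohesin and condensin genes 6 and 5 of 13, with medians of -0.87 and -0.91. Other centromere proteins, such as the CENP-R gene ITGB3BP, gave 0 and 2 of 10, and microtubule partners 1 and 1 of 9. Among the latter KIF2C, the microtubule-depolymerising kinesin of the centromere, was at 31.1 and 4.69 FPKM in HCT116. In LOVO it was at 30.3 and 15.5 FPKM and did not pass -1 (-0.92), and the gene past -1 there was CLIP1 (-1.15). Centriole duplication genes gave 2 and 0 of 10, with medians of -0.52 and -0.06. No gene of these lists was higher past 1 in either line, against a background of 2.19% in HCT116 and 8.57% in LOVO.

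**Figure D4:**
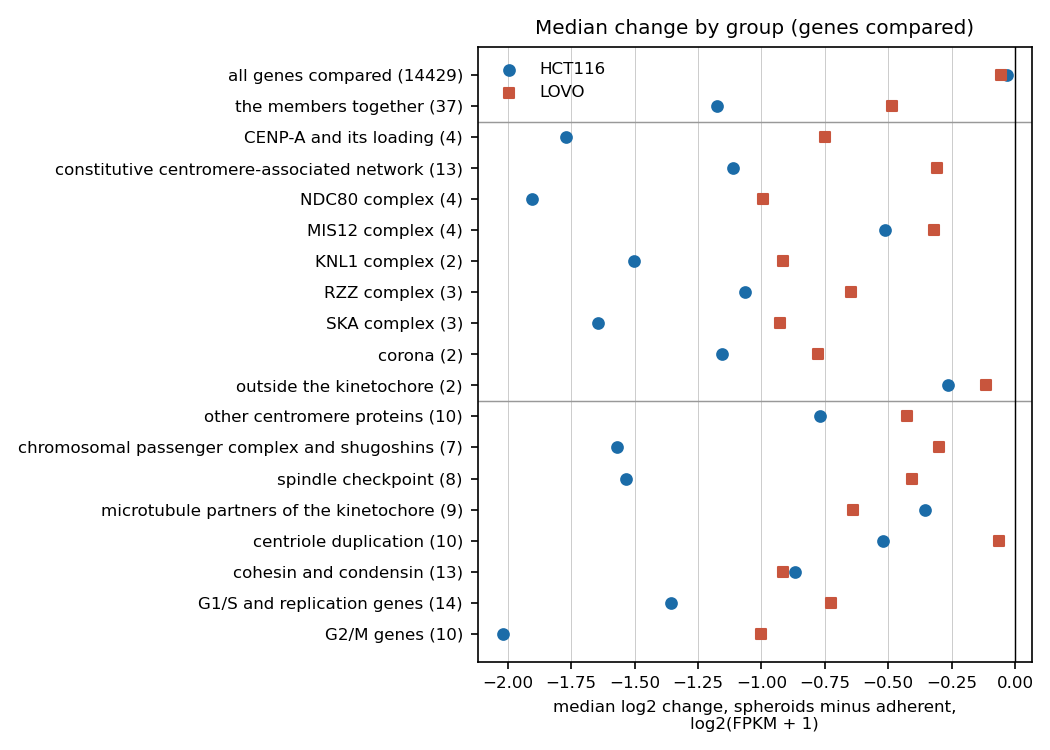
Median log2 change, spheroids minus adherent (x axis), of all genes compared, of the members together, of their 9 role groups and of 8 neighbouring gene lists (y axis, genes compared in parentheses), for HCT116 (circles) and LOVO (squares). The NDC80 complex has the lowest medians of the role groups, -1.90 and -0.99, and the G2/M genes the lowest of the lists, -2.02 and -1.0.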

How the data were processed

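RNA from 4 libraries, 1 for each line and culture, was made with a SMARTER mRNA-Seq kit. The deposited table holds FPKM per gene, computed by the authors, with gene length in other columns. The aligner, counter and human build are not given in the sources used here. The submitters' processing notes name GRCm38 and mm10, although all 58735 gene IDs are human and in GENCODE 29, and 58724 have its coordinates. FPKM times gene length, divided by what 1 read is worth in each library, gave whole reads for 100% of values (tolerance 0.1), with 15483569 to 20429147 reads on genes per library. The library sizes behind the FPKM, 16.8 to 20.4 in units of 1000000 reads, are not these totals. Genes with a mean of at least 1 FPKM were compared on log2(FPKM + 1), and all of them were fitted by limma (version 3.58.1, under R version 4.3.3), with the cell line as covariate, an intensity trend in the moderated variances, 1 residual degree of freedom and Benjamini-Hochberg adjustment. Because nothing says the libraries were repeated, no p-value describes spread between cultures within a line. Every member is named. Values are given per library for members past 1 in either direction in a line, for those with opposite signs in the lines, and for the 3 highest and 3 lowest by mean FPKM. Members and lists were chosen with earlier results of these data known. Other pseudocounts, filters, thresholds and scalings were tried. Intervals cover counting error only.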

Additional observations from a re-analysis of the deposited data

Results flagged for a closer look

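In 7 of the 37 genes the change went one way in HCT116 and the other way in LOVO. Opposite signs were no more common in the set than among all genes compared, of which 35.8% had them. Each change came from 1 library per condition, and the difference between the lines was not tested. Below 0 in HCT116 and above 0 in LOVO were MIS18A (-1.32 and 0.037), CENPC (-0.48 and 0.071), CENPH (-1.28 and 0.072), CENPI (-1.01 and 0.85), CENPQ (-1.52 and 0.018) and CENPJ (-0.43 and 0.17). CENPX went the other way (0.094 and -0.31). For CENPI and CENPJ the counting intervals of both lines lay on opposite sides of 0, from -1.86 to -1.16 and from 0.79 to 1.08 for CENPI, and from -0.75 to -0.35 and from 0.04 to 0.38 for CENPJ. For the other five, 1 interval held 0.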

How the results depend on the processing

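The median change in HCT116 was -1.50 with a pseudocount of 0.1 and -1.52 with 0.01. In LOVO it was -0.31 under TPM and -0.28 without mitochondrially encoded genes in the scaling, the latter chosen after seeing the data. Under each of these scalings 1 gene, CENPI, was higher past 1 in LOVO. With a threshold of 2, 5 genes were lower in HCT116, 0 in LOVO and 0 in both. With a threshold of 0.5, 18 were lower in LOVO and 18 in both, and 1 was higher in each line. The other settings tried gave 21 to 25 genes lower in HCT116, 5 to 9 in LOVO and 5 to 8 in both. The scaling moved the median of all genes in LOVO from -0.06 to 0.10 under TPM, and to 0.10 in HCT116 and 0.09 in LOVO without mitochondrially encoded genes. The limma fit called 0 genes at an adjusted p under 0.05 also without the covariate, at a mean of at least 5 FPKM and with no filter (163, 1110 and 2431 at an unadjusted p under 0.05, of which 4 of 37, 17 of 30 and 20 of 38 members). Leaving out 1 library removes a line's comparison and leaves the limma fit with the line covariate no residual degree of freedom, so it gave no value.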

Other observations

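Across the 37 genes, the changes of the lines went together with Pearson's r of 0.53 and Spearman's rho of 0.55, beside 0.30 and 0.35 over all genes compared. The points are genes measured in the same 4 libraries and are not independent replicates.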
